A study of Mus musculus with 21 samples.

Results

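The deletion of the long intergenic noncoding RNA gene Peril was described in whole brain of mouse embryos at E18.5, shortly before birth. Levels came from RNA sequencing of 4 of the 21 libraries of the series, 2 from linc-Sox2+/+ embryos (WT) and 2 from linc-Sox2-/- littermates (libraries labelled knockout, KO). The labels name this strain after Sox2, the coding gene nearest to Peril. In the KO allele most of the Peril locus is replaced by a lacZ reporter cassette that also carries a loxP-flanked hUb1-EM7-neo selection cassette. The allele was made in VGF1 embryonic stem cells, a hybrid of 129S6SvEv and C57BL/6N, and the strain was then crossed once to C57BL/6J, so that WT and KO littermates can differ at other parts of the genome as well. The labels list no treatment. TruSeq libraries of polyadenylated RNA were read as paired ends. The table of this experiment lists 42760 entries, and the 16897 with the status OK (39.5%) were used, the status by which the authors' software marks entries with enough reads for its comparison. Each entry has 1 pooled value for WT and 1 for KO, in FPKM, fragments scaled by the length of the transcript and by the number of mapped fragments. Differences are log2((KO + 1) / (WT + 1)) on these FPKM values, which understates the difference of genes at low levels. With 1 value a genotype there is no spread between embryos and no test, and a difference of 1.5-fold or more on this scale is used below only as a size.

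Long intergenic noncoding RNAs are transcribed between coding genes, spliced and polyadenylated, and many act or are thought to act in the nucleus. Peril lies downstream of Sox2, which encodes a transcription factor of neural progenitors and embryonic stem cells, and whose overlapping noncoding transcript is Sox2ot. At E18.5 the brain holds few dividing progenitors, many young neurons, the first astrocytes and oligodendrocyte precursors, and, in a whole dissection, also meninges, blood vessels, blood, microglia and choroid plexus.

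Peril spans 18178 bp of chromosome 3 of the mm9 build, of which the targeted deletion (chr3:34666771-34681214) removes 14444 bp. The first 3680 bp and the last 54 bp of the locus stay in the KO allele. Reference bases at the low end of the deletion are given here because they mark where the kept part of the locus stops. Capitals mark the first 40 deleted bases, on the plus strand.
Low end, chr3:34666731-34666810: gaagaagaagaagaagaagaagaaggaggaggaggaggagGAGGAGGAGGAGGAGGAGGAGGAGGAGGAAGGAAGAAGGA
The low end lies in a purine repeat of GAA and GAG units, and the deleted bases as a whole have a GC content of 45.8%. The study's own oligonucleotides for Peril show which assays the deletion removes. Both RT-PCR primers match bases inside it, 2388 bp apart from end to end.
RT-PCR forward, chr3:34668443-34668462: tgagttattcaggcggaacc
RT-PCR reverse, chr3:34670811-34670830: ggtgagcttgtgtgctgaag
The genotyping primers and both sets of 3 probe-assay oligonucleotides also lie inside the deletion. Of the 48 RNA FISH probes 29 lie inside and 19 outside, all 19 at bases the KO allele keeps.

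The table has no entry named Peril, so the deleted gene itself could not be read in WT or KO under its own name. The overlapping entry linc-Atp11b-4 is described below. The paper measured Peril by RT-PCR in E18.5 brain and reports that its levels bore out the deletion. Tissue identity was checked by markers. Neural genes were high in both genotypes, with Tubb3 (neuronal tubulin) at 1304 FPKM in WT and 1366 in KO. The liver marker Alb, the muscle factor Myod1 and the lung marker Scgb1a1 were at or below 0.06 FPKM. Not all genes of other tissues were absent. Of 10 liver and lung genes 4 had the status OK, 1 higher and 3 lower in KO. Among the lower ones Apoa2 was 1.15 FPKM in WT and listed at 0 in KO. The airway gene Plunc (2.52 and 0.0272 FPKM) and the olfactory gene Ugt2a1 (1.502 and listed at 0) were also higher in WT. So were the olfactory marker protein gene Omp (0.858 and 0.221 FPKM) and Cyp2a5 (1.30 and 0.169), both past 1.5-fold and low in level. Whether the WT pool held tissue from outside the brain was not tested. The genotypes differ in sex-linked RNA. The Y-linked genes Eif2s3y, Ddx3y, Kdm5d and Uty summed to 0.0256 FPKM in WT and 26.4 in KO, and Xist, the noncoding RNA that coats the inactive X, was 92.5 FPKM in WT and 47.9 in KO. Y-linked RNA was thus nearly absent from the WT pool and present in the KO pool. The labels give no sex. Genotype and embryo sex cannot be told apart in these pools for any gene, those of the X chromosome included. All 12 entries with the status HIDATA are mitochondrial and are listed at 0, so mitochondrial RNA was not compared.

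Next to the deletion, 2 noncoding entries that were almost absent in WT had clear levels in KO. The entry linc-Atp11b-4 (chr3:34654563-34676217), the only one over Peril, shares 13127 bp with it and 9447 bp with the deletion. Its level was 0.0109 FPKM in WT and 4.65 in KO, a difference of 2.48. The entry linc-Atp11b-3 begins 43858 bp beyond the deletion and had the largest difference of all 16897 genes, with 0.0601 FPKM in WT and 47.2 in KO (difference 5.51). The rest of linc-Atp11b-4 lies outside the deletion. The table gives no exons, so which bases the fragments came from was not measured. Both entries were below 0.1 FPKM in WT and KO alike in every other knockout comparison of the series, which used P7 brain, E15.5 telencephalon and E13.5 telencephalon of the linc-Brn1b strain and lung of the Fendrr strain at E14.5.

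On the other side of Peril the Sox2 locus was lower in KO. Sox2 itself was 30.5 FPKM in WT and 21.5 in KO, or 70.3% of WT (difference -0.49), which stays inside 1.5-fold. Sox2ot, whose status was LOWDATA, had 2.53 FPKM in WT and 1.52 in KO, and linc-Atp11b-5 in the same locus entry 12.5 and 10.3. The coding genes at the edges of the 1 Mb window were higher in KO. These were Atp11b, a phospholipid transporter, with 28.4 FPKM in WT and 36.5 in KO, Ttc14 with 14.2 and 20.3, and Ccdc39, a gene of motile cilia, with 7.37 and 9.73. Dnajc19 (23.7 and 25.01 FPKM), Fxr1 (29.5 and 32.4) and AK051383 (0.624 and 0.935) differed by less. Of the 10 OK genes within 1 Mb of the first base of Peril, the 2 noncoding entries passed 1.5-fold (20%, against 1.78% of all genes) and the other 8 did not. Within 5 Mb it was 3 of 57 genes, within 10 Mb 3 of 82 and within 20 Mb 5 of 141, so the entries past that size within 5 Mb were the same in number as within 10 Mb.

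**Figure D1:**
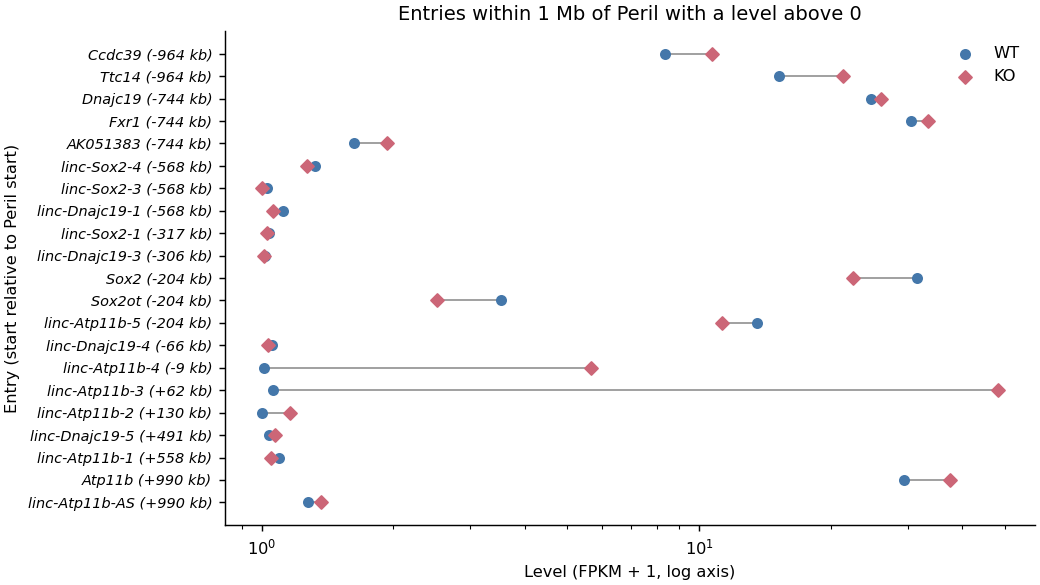
Levels in WT (circles) and KO (diamonds) of every entry within 1 Mb of Peril that is above 0, as FPKM + 1 on a log axis, with the start of its locus entry relative to the start of Peril in kb and 1 pooled value a genotype. The entries linc-Atp11b-4 and linc-Atp11b-3 go from 0.0109 and 0.0601 FPKM in WT to 4.65 and 47.2 in KO, while Sox2 is at 30.5 and 21.5.

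Across the whole brain transcriptome the 2 genotypes were close. The median difference was 0.01 and the SD over genes 0.23, and 10813 genes (64.0%) were within 10% of equality. A gene was higher in KO in 8780 cases (52.0%) and lower in 8117 (48.04%). In all, 300 genes (1.78%) were 1.5-fold or more apart, 172 of them higher in KO (1.02%) and 128 lower (0.758%). At 2-fold there were 50 higher and 39 lower. The genes nearest to the 1.5-fold line had differences of 0.587 inside and 0.584 outside on the higher side, and of -0.585 and -0.584 on the lower side. The share past 1.5-fold was 3.62% of the 2624 genes with a mean under 1 FPKM, 2.28% of the 6975 between 1 and 10, 0.588% of the 6633 between 10 and 100 and 1.05% of the 665 above 100. Most genes past 1.5-fold were therefore low, with a median of 2.02 FPKM for the higher and 2.11 for the lower group, against 7.72 for all others. The 10 genes with the highest levels, led by Tuba1a (4558 FPKM in WT and 4695 in KO), were all inside 1.5-fold, and among them Tmsb10, which encodes the actin-binding thymosin beta 10, was 2325 in WT and 1882 in KO.

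**Figure D2:**
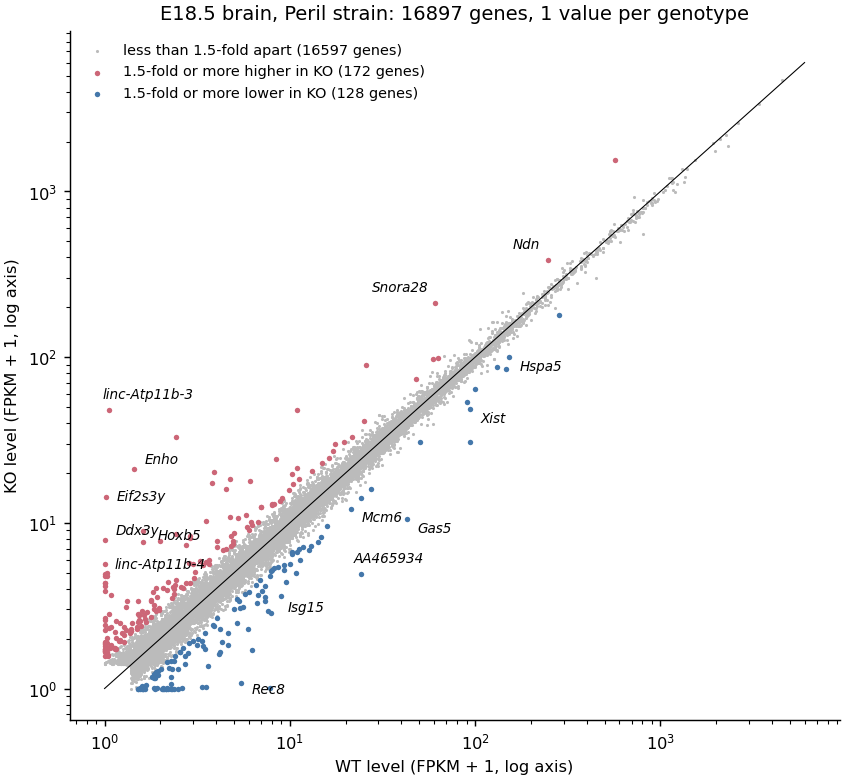
Level of each of 16897 genes in KO against WT, both as FPKM + 1 on log axes, with 1 point a gene and the line of equality. Of these genes 172 lie 1.5-fold or more above the line and 128 below, mostly at low levels, and labelled genes are those described in the text.

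Besides the Y-linked genes, the genes with the largest higher values in KO fell into a few kinds. Enho (locus entry chr4:41516827-41587335, mm9), which encodes the secreted peptide adropin, had the largest difference of any autosomal gene with a standard name, at 0.435 FPKM in WT and 20.1 in KO (3.88). The Hox genes Hoxb5 (0.611 and 6.63 FPKM) and Hoxa5 (1.002 and 6.81) encode homeodomain factors that set position along the body axis. Small nucleolar RNAs, which guide chemical modification of ribosomal RNA, made up 4 of the 15 highest, namely Snora47 (0 and 3.35 FPKM), Snora70 (9.99 and 46.7), Snora81 (3.76 and 17.4) and Snora28 (59.97 and 212). The remaining names are alternative entries of coding loci. Vdu2 (0.0359 and 3.80 FPKM) shares its locus with Usp20, mKIAA0154 (1.44 and 7.60) with Gga3, and AK217931 (3.53 and 15.04) with Ip6k2, while the entry called Rpl29 (0.0318 and 3.97) sits on another chromosome than the ribosomal protein gene of that name. Of entries without a standard name linc-X99384, at the Eif4ebp2 locus, was 1.42 FPKM in WT and 31.8 in KO.

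The genes with the lowest values in KO against WT were led by Rec8 (chr14:56237007-56244227), a cohesin subunit known from meiosis, with 4.42 FPKM in WT and 0.0830 in KO (-2.32). The noncoding gene Gas5 (locus entry chr1:162938925-163000763), which hosts small nucleolar RNAs in its introns, was 41.8 FPKM in WT and 9.57 in KO (-2.02), and linc-Zbtb37-BP from the same locus 92.5 and 29.9. Gstm6, a glutathione S-transferase, was 5.22 and 0.712 FPKM, and Cbr2, a carbonyl reductase, 3.31 and 0.908. Rsl1, a zinc finger repressor of genes with sex-limited expression in liver, was 1.61 FPKM in WT and 0.00191 in KO. Gstm6, Cbr2 and Rsl1 were not assigned to any one tissue or pathway here. Plunc, an airway secretory protein, had 2.52 FPKM in WT and 0.0272 in KO. Ugt2a1, a glucuronosyltransferase of the olfactory epithelium, had 1.502 FPKM in WT and was listed at 0 in KO. Isg15, a ubiquitin-like protein induced by interferon, was 7.92 FPKM in WT and 2.62 in KO (-1.30), and the class I antigen gene H2-Bl 3.19 and 0.662. Pcp2, a marker of Purkinje cells of the cerebellum, was 6.34 FPKM in WT and 2.39 in KO. AA465934 (23.1 and 3.89 FPKM), Snhg9 (4.92 and 1.29), AK006748 (8.57 and 3.39), UCP4 (3.65 and 1.16) and Cip85 (1.27 and listed at 0) completed the 15 lowest. Without a standard name, 5430416N02Rik was 6.79 FPKM in WT and 0.0103 in KO, and linc-Syt11 2.37 and 0.0243.

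Many of these entries share a stretch of genome with other entries, to which the software divides the same reads. Of the 172 higher genes 124 (72.1%) and of the 128 lower genes 92 (71.9%) share their locus entry, against 53.6% of the other genes. In several loci an entry that was higher in KO stood beside one that was lower. At the Enho locus linc-Dnaic1-AS (status LOWDATA) was 43.3 FPKM in WT and 26.1 in KO while Enho was 0.435 and 20.1. Beside linc-X99384, with 1.42 and 31.8 FPKM, the entry DQ716436 (LOWDATA) had 33.1 in WT and 1.41 in KO. Beside 5430416N02Rik, with 6.79 and 0.0103 FPKM, linc-Sec31a had 9.89 in WT and 20.3 in KO. These 3 pairs have opposite differences within 1 locus. Beside Rsl1, with 1.61 and 0.00191 FPKM, Zfp429 had 0.532 in WT and 1.80 in KO, and Zfp455 had 1.46 and 0.992. In a neighbouring entry linc-Rsl1 was listed at 0 in WT and at 3.91 FPKM in KO. Beside H2-Bl, with 3.19 and 0.662 FPKM, H2-T9 had 1.14 in WT and 1.97 in KO, while A930015D03Rik (5.05 and 2.82) and H2-T22 (2.48 and 1.91) were lower. At other loci the main gene hardly differed. Usp20 was 15.2 FPKM in WT and 15.4 in KO beside Vdu2, Gga3 15.9 and 14.99 beside mKIAA0154, Slc25a27 18.46 and 21.5 beside UCP4, and Sgsm3 16.0 and 16.6 beside Cip85. Rec8, Gstm6 and Plunc are alone in their entries, and at the Gas5 locus Zbtb37 was 5.35 FPKM in WT and 5.74 in KO. Genes named linc- made up 29.7% of the higher and 20.3% of the lower genes, against 10.04% of the others.

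Among genes with a mean of at least 10 FPKM, where the fold scale is least compressed, 27 between 10 and 100 FPKM were higher by 1.5-fold and 12 lower, and above 100 FPKM 3 were higher and 4 lower. The examples that follow were chosen after their values were seen. Ndn, an imprinted gene of postmitotic neurons, was 245 FPKM in WT and 386 in KO. Cetn3, a centriole protein, was 61.7 and 98.1 FPKM, Sh3bgrl 57.9 and 96.5, and Wdfy1, an adaptor of Toll-like receptors, 7.41 and 23.2. On the lower side stood Hspa5, the main chaperone of the endoplasmic reticulum, with 151 FPKM in WT and 99.4 in KO. The pericyte gene Rgs5 was 26.6 and 14.97 FPKM, and Mcm6, a subunit of the replicative helicase, 20.3 and 11.1. The beta globin entries Hbb-b1 (89.2 and 52.8 FPKM) and Beta-s (284 and 179) were lower as well.

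Hox genes were higher in KO without exception among those with the status OK. Of the 39 Hox genes listed, 15 had the status OK, all 15 were higher in KO and 8 of them were past 1.5-fold (53.3%, against 1.02% of all genes on the higher side). The family was chosen for this count after its values were seen. The filter bears on it as well, since an entry can reach the status through 1 genotype. Hoxb8, Hoxb7, Hoxb6, Hoxc5 and Hoxa6 were at or below 0.0561 FPKM in WT. Hoxb9, Hoxd8, Hoxd9 and Hoxd13, without the status and near 0 in both genotypes, were lower in KO. The direction of the 15 is therefore not independent of the filter. The levels of the 15 summed to 7.22 FPKM in WT and 30.1 in KO. Hoxa4 was 0.516 FPKM in WT and 2.39 in KO, Hoxb6 0.0510 and 1.32, Hoxb8 0.0118 and 0.917, and Hoxc4 0.540 and 1.76. The OK genes of paralog groups 2 and 3, which are active furthest forward in the hindbrain, were inside 1.5-fold on this scale. Hoxa2 was at 1.14 and 1.45 FPKM, Hoxb2 at 0.468 and 1.05 and Hoxd3 at 0.744 and 1.61. At such levels the added 1 FPKM shrinks differences, so lying inside 1.5-fold does not set these groups apart. Hoxc5 (0.0509 and 0.457 FPKM) and Hoxa6 (0.0561 and 0.566), of later groups, were inside it too. The largest differences were those of Hoxb5 and Hoxa5, and groups 9 to 13 were near 0 in both genotypes. Hox genes are expressed in the caudal hindbrain and spinal cord and not in the forebrain or midbrain. Markers of the brainstem respiratory and visceral motor groups were also mostly higher, in 13 of 16 genes with a median of 0.11, with Tshz3 at 8.35 FPKM in WT and 12.8 in KO, Prph at 4.0 and 5.76 and Lmx1b at 1.34 and 2.13, none past 1.5-fold. Of the 27 OK genes in the list of cerebellum and hindbrain markers 10 were higher and 17 lower (median -0.11), where the 4 genes past 1.5-fold on the higher side were Hox genes and the 1 on the lower side was Pcp2. The Purkinje cell gene Car8 was 6.68 FPKM in WT and 4.25 in KO, and the granule cell gene Zic1 47.6 and 43.8. How much caudal tissue each pool held was not measured, and its part in these values was not tested.

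**Figure D3:**
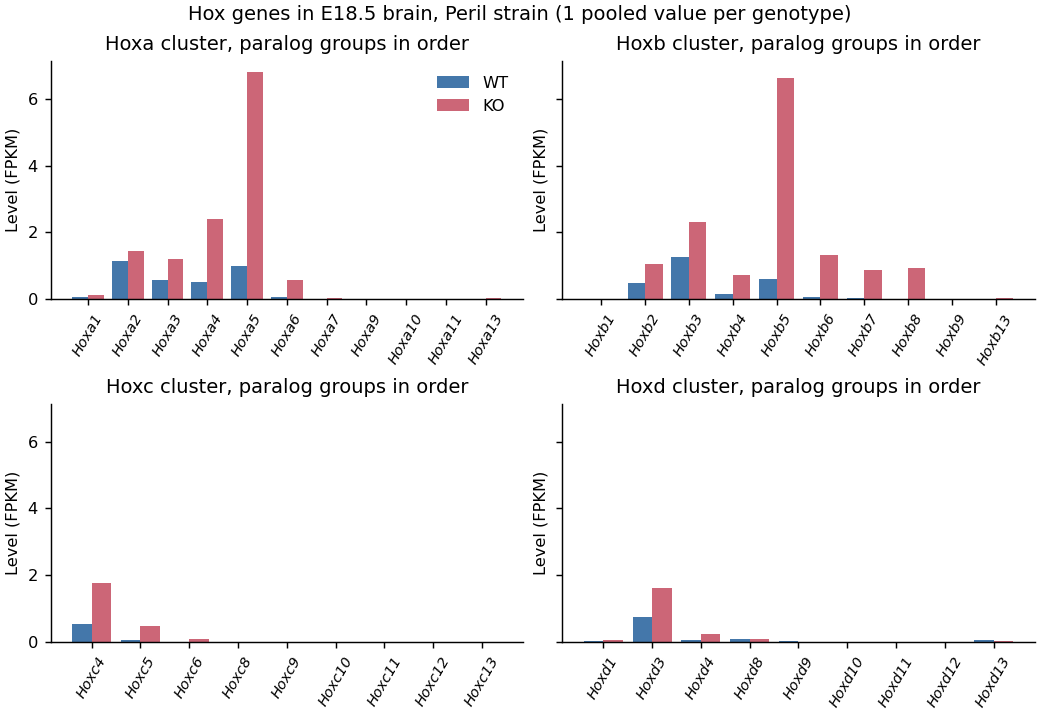
Levels in FPKM of all Hox genes of the table in WT and KO, in 4 panels for the 4 clusters, with paralog groups from low to high and 1 pooled value a genotype. Hoxa5 and Hoxb5 reach 6.81 and 6.63 FPKM in KO against 1.002 and 0.611 in WT, and genes past group 8 are near 0.

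Small nucleolar RNAs are short and mostly without a poly(A) tail, and 7 of the 99 listed had the status OK. Of these 5 were higher by 1.5-fold (71.4%, against 1.02% of all genes), 2 (Snora24 and Snord17) were lower by less, and the family, chosen after values were seen, had a median of 1.81. The filter bears on this share. Snora47 (0 FPKM in WT) and Scarna6 (0.208 and 1.49) had the status, while Snora34 (21.9 FPKM in WT and 0 in KO) and Snora7a (7.37 and 0) did not. The share is thus no measure of the family as a whole. Hosts of the higher entries, where given here, did not follow. The host Rpl10 was 758 FPKM in WT and 749 in KO beside Snora70, Eif5 87.2 and 93.6 beside Snora28, Eif4a2 222 and 218 beside Snora81 and Zbed3 9.32 and 8.49 beside Snora47. Of the noncoding hosts, Gas5 and Snhg9 were lower and Snhg11 (146 and 177 FPKM) and Snhg3 (15.2 and 12.7) stayed inside 1.5-fold.

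Beyond single genes, 54 lists with 1320 genes of pathways, complexes and cell types were described, of which 1200 genes had the status OK and 30 were past 1.5-fold (2.5%, against 1.78% of all genes). The median difference was above 0 in 18 lists and below 0 in 36, while over all genes it was 0.01. In lists with at least 10 OK genes the medians ran from -0.36 to 0.16. In pooled whole tissue, fewer cells of a type and less RNA per cell cannot be told apart.

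**Figure D4:**
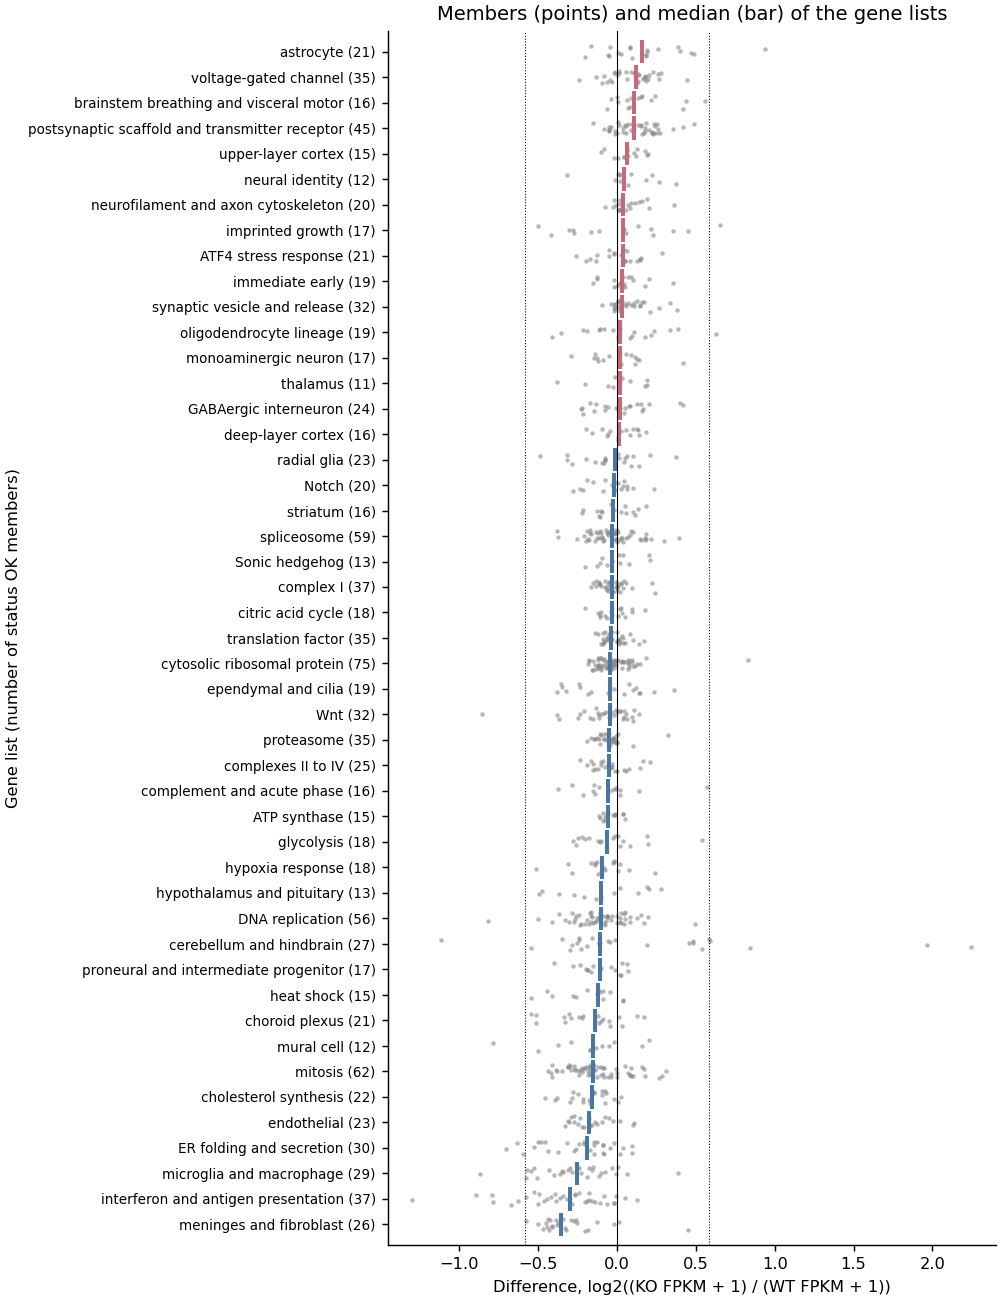
Difference of each OK gene (points) and the median (bars) for the lists with at least 10 OK genes, as log2((KO + 1) / (WT + 1)) of FPKM, with dotted lines at 1.5-fold and the vertical spread of points only for legibility. Medians run from -0.36 for meninges and fibroblast genes to 0.16 for astrocyte genes.

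Genes that interferon induces, and the antigen presentation genes, were lower in KO in 35 of 37 cases. The median was -0.30, 6 genes were past 1.5-fold and all 6 were lower (against 0.758% of all genes), and the summed level in KO was 72.8% of WT. Interferons signal through transcription factors that bind the interferon-stimulated response element in the promoters of their targets. Beside Isg15 the genes past 1.5-fold were Bst2 (tetherin, which holds budding viruses at the cell surface; 11.7 FPKM in WT and 5.83 in KO), Ifitm3 (a block to viral entry; 23.3 and 13.03), Xaf1 (2.36 and 0.944), Rtp4 (2.83 and 1.40) and Ifit1 (a sensor of viral RNA; 1.28 and 0.473). B2m, the light chain of class I antigen molecules and the most abundant gene of the list, was 57.9 FPKM in WT and 38.5 in KO, just inside 1.5-fold. RefSeq promoters (GRCm38.p6, a window around each gene's start) were at hand for 30 of the 37 genes. The motif, GAAA repeated after 2 bases of any kind and read on both strands, was in 13 of these 30 (43.3%), against 3.99% of 27025 genes. The list was chosen as genes that interferon induces and antigen presentation genes, so the higher share is a property of that choice and says nothing about KO. The promoters of Isg15 and Bst2, the pair with the largest differences, show the motif as overlapping repeats, here in capitals on the strand of the gene.
Isg15, chr4:156200855-156200916, minus strand: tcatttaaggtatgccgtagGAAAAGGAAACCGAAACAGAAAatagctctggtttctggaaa
Bst2, chr8:71537567-71537622, minus strand: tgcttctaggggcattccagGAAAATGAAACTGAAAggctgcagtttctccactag
All 13 genes with the motif were lower in KO, yet their median of -0.30 was close to the -0.32 of the genes without it, so the letters did not set the 2 apart within the list.

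Cell types of the brain's coverings, vessels and blood were lower in KO. Of 26 genes of meninges and fibroblasts 24 were lower, with a median of -0.36 and a summed level of 71.6% of WT, although none passed 1.5-fold. Ptgds, the prostaglandin D synthase of the leptomeninges, was 449 FPKM in WT and 300 in KO, the growth factor gene Igf2 115 and 81.2, Islr 14.2 and 9.98 and the collagen gene Col1a1 13.96 and 9.96, while Ogn, a small proteoglycan, was higher in KO (5.04 and 7.26). Of 29 genes of microglia and macrophages 26 were lower (median -0.25, summed level 79.0% of WT). Lysozyme, Lyz2, was the 1 gene past 1.5-fold, at 5.74 FPKM in WT and 2.69 in KO, and the Fc receptor chain Fcer1g (8.35 and 5.26), Ly86 (5.198 and 3.17) and Pf4 (11.6 and 7.64) came close to it. P2ry12, a receptor of resident microglia, went the other way with 2.06 FPKM in WT and 2.996 in KO.

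Endothelial genes were lower in 20 of 23 cases with a median of -0.18. Flt1, a receptor for VEGF, was 7.11 FPKM in WT and 5.45 in KO, and the tight junction gene Cldn5 41.0 and 36.1. Mural cell genes were lower in 10 of 12 cases (median -0.15), Rgs5 by most. Choroid plexus genes were lower in 17 of 21 cases (median -0.14), and their summed level of 70.1% of WT rested on Ttr, transthyretin, at 807 FPKM in WT and 551 in KO, with the potassium channel subunit Kcne2 at 5.95 and 3.86 and Sostdc1 at 6.33 and 4.13. Of 7 OK erythroid genes 6 were lower, led by the globins, for a summed level of 70.4% of WT. These lists moved together with the interferon list, whose genes are also expressed in microglia, endothelium and meninges, and their part in it was not tested.

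Genes for folding and secretion in the endoplasmic reticulum were lower in KO in 26 of 30 cases, with a median of -0.19 and a summed level of 83.1% of WT. The 3 past 1.5-fold, all lower (against 0.758% of all genes), were Xbp1, the transcription factor of the unfolded protein response (49.3 FPKM in WT and 29.9 in KO), the disulfide isomerase Pdia6 (99.1 and 63.6) and Hspa5 (151 and 99.4). Creld2 (18.96 and 12.8 FPKM) and the calcium-binding chaperone Calr (269 and 196), the most abundant gene of the list, were lower by less. The endoplasmic reticulum stress element was searched on both strands as CCAAT followed after 9 bases by CCACG. It was in 7 of the 25 promoters at hand from the same build (28%), against 0.137% of all genes. The list was chosen by known function, so a higher share than among all genes is a property of that choice and says nothing about KO. A pair of these promoters is shown because their genes are past 1.5-fold, with the element in capitals on the strand of the gene.
Hspa5, chr2:34772005-34772063, plus strand: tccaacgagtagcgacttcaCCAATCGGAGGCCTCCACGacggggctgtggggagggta
Pdia6, chr12:17266471-17266529, plus strand: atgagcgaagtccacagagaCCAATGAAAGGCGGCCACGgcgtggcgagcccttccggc
All 7 genes with the element (Hspa5, Hsp90b1, Calr, Canx, Pdia6, Dnajc3 and Creld2) were lower in KO. Among them Pdia6 lies in a stretch of chromosome 12 (15 to 25 Mb) where 10 of 47 genes were past 1.5-fold higher and 7 lower. The median of the 7 genes with the element, -0.46, lay below the -0.15 of the 18 promoters without it, a description with no test. Related lists were lower by less. Of 22 genes of cholesterol synthesis 20 were lower (median -0.16), among them Ebp (6.94 and 4.79 FPKM), Cyp51 (54.8 and 41.4) and Sc5d (26.9 and 20.5). Cytosolic heat shock genes were lower in 13 of 15 cases (median -0.12), with Hspa8 at 1196 FPKM in WT and 997 in KO, and hypoxia response genes in 14 of 18 (median -0.09), with the collagen hydroxylase subunit P4ha1 at 10.8 and 7.24. The ATF4 stress genes, another branch of the response to stress in the endoplasmic reticulum, were higher in 12 of 21 cases with a median of 0.03, and Atf4 itself was 67.1 and 64.7 FPKM.

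Genes of dividing cells were lower in KO as groups. Of 62 genes of mitosis 48 were lower and 14 higher, with a median of -0.15 and none past 1.5-fold. The cyclins Ccnb1 (11.02 FPKM in WT and 7.88 in KO) and Ccnb2 (6.94 and 4.94), the kinase Cdk1 (7.02 and 5.01) and the ubiquitin ligase component Ube2c (12.2 and 8.97) led the list. Of 56 genes of DNA replication 39 were lower (median -0.10), with Mcm6 the 1 gene past 1.5-fold. The ribonucleotide reductase subunit Rrm2 was 18.1 and 12.5 FPKM, the origin recognition subunit Orc4 was higher with 11.4 and 16.4, and Pcna, the sliding clamp, was 86.3 and 76.9. The E2F motif TTTNGCGC was in 12 of 46 promoters at hand (26.1%), against 1.57% of all genes, a share that also comes with the choice of list. Of these 12 genes 9 were lower, and the medians with and without the motif were both -0.11. All 7 OK histone genes were lower as well, none by 1.5-fold, with Hist1h4i at 2.56 FPKM in WT and 1.43 in KO.

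The progenitor lists were mixed. Of 23 radial glia genes 13 were lower and 10 higher (median -0.02), since Sox2, Vim (150 and 120 FPKM) and Nes (18.2 and 14.4) were lower while Fabp7, a fatty acid binding protein of radial glia, was 715 FPKM in WT and 928 in KO. Of the SoxB genes, the subfamily of Sox2, Sox14 (3.57 and 2.72 FPKM) and Sox21 (5.24 and 4.51) were lower and Sox1 (9.67 and 9.58) and Sox3 (2.36 and 2.37) equal. Proneural and intermediate progenitor genes were lower in 12 of 17 cases (median -0.11), with Neurog2 at 4.22 and 2.95 FPKM. Of 32 Wnt genes 21 were lower (median -0.05), Tcf7, a transcription factor at the end of the pathway, was past 1.5-fold with 6.06 FPKM in WT and 2.90 in KO, and its relative Lef1 was 5.42 and 3.93. Notch genes (8 higher, 12 lower, median -0.02) and Sonic hedgehog genes (6 higher, 7 lower, median -0.03) lay near the median of all genes.

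Lists with higher values in KO were those of astrocytes and of the membranes of maturing neurons. Of 21 astrocyte genes 16 were higher, with a median of 0.16, and Agt, angiotensinogen, was past 1.5-fold with 4.80 FPKM in WT and 10.1 in KO. The intermediate filament gene Gfap was 8.50 and 12.1 FPKM, the metallothionein Mt2 30.6 and 43.4, the receptor Fgfr3 10.1 and 13.6 and Apoe, the most abundant of the list, 324 and 368. Of 45 postsynaptic genes 35 were higher (median 0.11), with the GABA receptor subunit Gabrg3 at 2.96 and 4.56 FPKM and the AMPA receptor subunit Gria2 at 92.8 and 124. Of 35 voltage-gated channel genes 25 were higher (median 0.12), with the potassium channel Kcnh7 at 2.26 and 3.42 FPKM and the sodium channel Scn8a at 9.36 and 11.5. The presynaptic list was higher in 24 of 32 cases with a median of only 0.03, and Pclo, a scaffold of the active zone, was 9.96 and 13.3 FPKM. Neurofilament and axon genes were higher in 16 of 20 cases (median 0.04). In these lists Agt alone was past 1.5-fold.

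Genes of the oligodendrocyte lineage went both ways, 11 higher and 8 lower with a median of 0.02. The myelin gene Mobp, at 0.131 FPKM in WT and 0.748 in KO, was the 1 gene of 19 past 1.5-fold. Mbp, which encodes myelin basic protein, was 11.5 and 15.4 FPKM. Lower values in KO were those of Olig2, a transcription factor of the lineage (12.8 and 9.80 FPKM), and of Cldn11, a tight junction gene of myelin and also of meninges (15.6 and 11.5). Imprinted growth genes also went both ways. Ndn (245 and 386 FPKM), Meg3 (116 and 149) and Peg3 (33.3 and 39.2) were higher, and Igf2, the growth inhibitor Cdkn1c (44.9 and 33.4), Grb10 (27.1 and 21.8) and Mest (36.8 and 30.2) were lower in KO.

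Regional neuron lists lay near 0. Medians were 0.07 for upper-layer cortex (12 of 15 higher), 0.01 for deep-layer cortex, 0.02 for GABAergic interneurons, 0.02 for thalamus, 0.02 for monoaminergic neurons and -0.03 for striatum. Reln, the guidance protein of Cajal-Retzius cells and interneurons, was 26 FPKM in WT and 35.1 in KO. The hypothalamic list was lower in 8 of 13 cases (median -0.10), and its peptide genes Hcrt (0.681 and 0.194 FPKM) and Gnrh1 (1.02 and 0.454) are at the low end of the range. Ependymal genes went both ways (8 higher, 11 lower), with the ciliary master factor Foxj1 at 7.97 and 6.02 FPKM. Basic machinery differed by little per gene but mostly in 1 direction. Proteasome subunits were lower in 32 of 35 cases with a median of -0.05, ATP synthase subunits in 12 of 15 (-0.06), complexes II to IV in 19 of 25 (-0.05), complex I in 26 of 37 (-0.03), ribosomal proteins in 55 of 75 (-0.04) and spliceosome genes in 39 of 59 (-0.03). Differences of this size are under 5% of a level and cannot be read for any single gene at 1 value a genotype. Glycolysis genes were lower in 11 of 18 cases (-0.07), with Ldha at 247 and 206 FPKM and the neuronal enolase Eno2 higher with 50.9 and 58.4.

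Across the genome 373 of 542 windows of 5 Mb held no gene past 1.5-fold, and 8 held 5 or more. Over all genes 1.02% were higher and 0.758% lower. Chromosome 17 had 20 higher (2.37%) and 7 lower (0.830%) among 843 genes. The X chromosome had 15 higher (2.58%) and 5 lower (0.861%) among 581, and chromosome 12 had 14 higher (2.22%) and 12 lower (1.90%) among 631. On chromosome 12 between 15 and 25 Mb, a stretch chosen after its values were seen, 10 of 47 genes were higher (21.3%) and 7 lower (14.9%), among them linc-Taf1b-8 (2.81 FPKM in WT and 16.5 in KO), linc-Asap2-4 (1.74 and 6.31), EG245297 (5.08 and 16.9) and, on the lower side, linc-Taf1b-12 (6.94 and 1.87). Pdia6 lies in this stretch. Chromosome 3 as a whole, which carries the deletion, had 9 higher and 4 lower among 823 genes.

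The other knockout comparisons of the series show whether the same genes differ where another noncoding gene was deleted. They use other embryos as controls, and since each strain's table was normalized on its own, only differences within a table were read. Genes past 1.5-fold were 227 higher (1.43%) and 131 lower (0.826%) of 15860 in Fendrr lung, 233 (1.32%) and 778 (4.41%) of 17660 in linc-Brn1b E13.5 telencephalon, 25 (0.143%) and 46 (0.264%) of 17434 at E15.5, and 326 (1.73%) and 367 (1.95%) of 18805 in P7 brain. Genes were matched by symbol, and symbols that occur more than once in a table were left out. Of the 204 Peril genes that had the status OK at E13.5, 41 passed 1.5-fold in the same direction there (20.1% of these Peril genes and 4.06% of the 1010 genes past it at E13.5 whose symbol occurs once) and 18 in the opposite. At E15.5 it was 16 and 5 of 202 (7.92% and 2.48%), where the 16 are 22.5% of that comparison's 71 genes. In P7 brain it was 32 and 29 of 230, and in Fendrr lung 22 and 30 of 229. Y-linked genes bear on these counts. All 4 with the status OK were past 1.5-fold on the higher side at E15.5 and P7, as in Peril. At E13.5 and in Fendrr lung all 4 were past it on the lower side. The overlaps were not counted again without them.

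Several of the genes with the largest Peril differences had the same difference in linc-Brn1b KO tissue. Rec8 was 3.64 FPKM in WT and 0.101 in KO at E13.5, and 3.38 and 0.0296 at P7, but 5.04 and 4.56 at E15.5. Gas5 was 105 and 16.3 FPKM at E13.5, 59.2 and 19.3 at P7, and 136 and 132 at E15.5. Gstm6 was 2.35 and 0.188 FPKM at E13.5, 5.46 and 1.35 at P7, and 2.69 and 2.32 at E15.5. These 3 genes thus had low values in KO of 2 strains at 3 of 4 brain stages, with E15.5 the exception. The enolase copy Gm5506 had the opposite sign with the same stages, at 2.90 FPKM in WT and 19.2 in KO of Peril, 2.95 and 36.3 at E13.5, 1.91 and 19.4 at P7 and 2.24 and 2.17 at E15.5, and it was 90.4 and 6.45 in Fendrr lung. Whether 1 cause lies behind the differences in both strains was not tested.

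Other leading genes did not share their Peril difference across the linc-Brn1b stages. Enho was 24.4 FPKM in WT and 16.1 in KO at E13.5, 27.2 and 27.6 at E15.5 and 43.9 and 40.7 at P7, so its level in Peril KO (20.1) is nearer to these than its level in Peril WT (0.435) is, with the reservation that tables differ in scale. Wdfy1 was inside 1.5-fold at all 3 linc-Brn1b stages and in Fendrr lung. Isg15 was inside 1.5-fold at all 3 linc-Brn1b stages, at or below 1.48 FPKM, and past it on the higher side in Fendrr lung (0.474 FPKM in WT and 1.33 in KO). Hspa5, Xbp1 and Pdia6 were inside it in all 4 other comparisons. Bst2 was lower at E13.5 (3.32 and 1.18 FPKM) and close to equal at E15.5 and P7. Hox genes went the other way in P7 brain, where all 15 OK genes were lower in KO and summed to 19.4 FPKM in WT and 0.0907 in KO, and none had the status OK in telencephalon. With KO levels this low, the status of the 15 at P7 rested on the WT pool. In P7 brain Pcp2 was 14.7 FPKM in WT and 1.48 in KO.

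Lists that were low in Peril KO were compared in the same way. The meninges list had a median of -0.52 at E13.5, -0.12 at E15.5, -0.29 at P7 and 0.24 in Fendrr lung, and the interferon list -0.16, -0.03, -0.07 and 0.06. The list of folding and secretion was -0.10 at E13.5, 0.04 at E15.5, -0.13 at P7 and 0.00 in lung, and mitosis -0.03, 0.03, -0.51 and -0.03. At E13.5 6 of the 30 OK genes of folding and secretion were past 1.5-fold, all 6 lower, where 4.41% of all genes were lower by that size. Meninges and interferon medians were thus below 0 in all 4 brain comparisons, but the interferon median was lowest in Peril. The postsynaptic list was above 0 in all of them, with 0.28 at E13.5, 0.06 at E15.5, 0.19 at P7 and 0.03 in lung, while the astrocyte list was -0.12, 0.03, -0.03 and 0.02. Whether these medians differ between comparisons cannot be tested with 1 value a genotype.

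**Figure D5:**
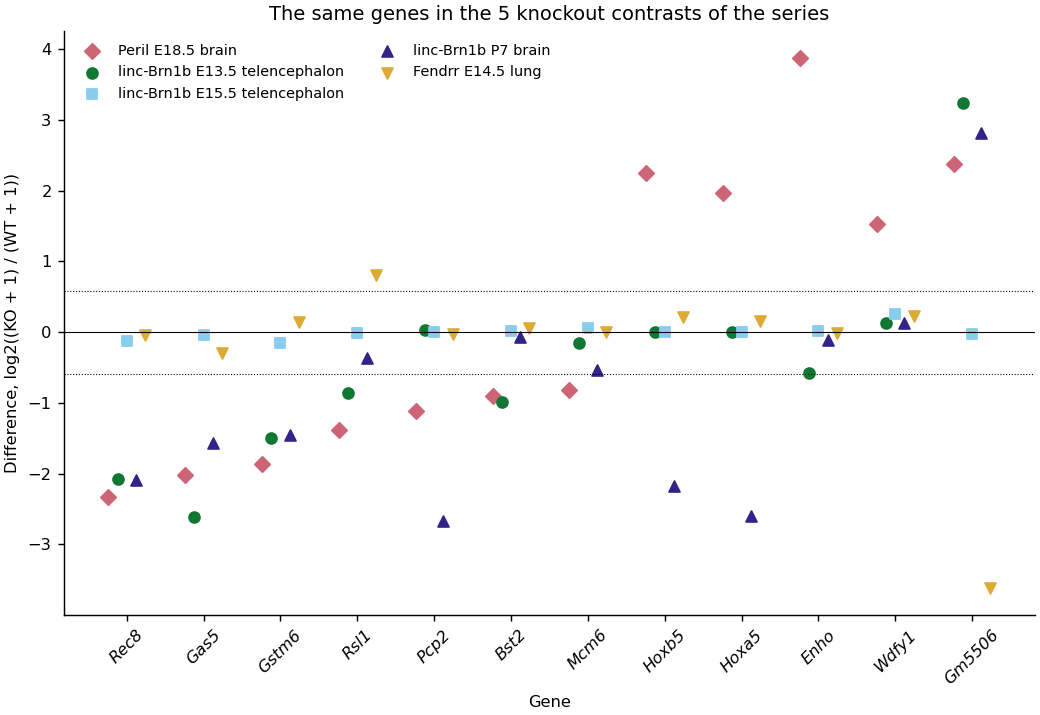
Difference, log2((KO + 1) / (WT + 1)) of FPKM, of 12 genes chosen after their values were seen, in the Peril comparison (diamonds) and the 4 other knockout comparisons, with dotted lines at 1.5-fold and 1 pooled value a genotype. Rec8, Gas5 and Gstm6 are low in Peril E18.5 brain, linc-Brn1b E13.5 and P7 and near 0 at E15.5, whereas Enho, Wdfy1 and the 2 Hox genes are past 1.5-fold on the higher side in Peril alone.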

How the data were processed

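RNA from E18.5 whole brain was sequenced in 2 WT and 2 KO libraries. The authors aligned reads to mm9 with TopHat2 and deposited FPKM values from Cufflinks 2.0.2 (names from the submitters' processing notes and the paper's methods), with 1 value per genotype estimated over both libraries, a status, and their own fold change, test statistic, p-value and q-value, which were not used. There were 0 columns of values per library, so depth behind a value, counting error and intervals are unknown. A pseudocount of 1 FPKM was added, and genes 1.5-fold or more apart were counted among OK entries with Python 3.11.15, pandas 2.3.3 and NumPy 2.4.6. The counting code was checked on simulated data with planted changes well past 1.5-fold and little other spread, which says nothing about how reliable the counts are. Table starts count from 0, and 1 was added.

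Genes named are the 15 highest and 15 lowest of at least 1 FPKM in either genotype with a standard symbol, 3 highest and 3 lowest of other names (linc-, Gm, RIKEN, XLOC, LOC or EG), up to 4 members with the largest difference and the most abundant member of each list, entries within 1 Mb of Peril, Y-linked genes, Xist, the 10 most abundant genes and tissue markers, and other genes named were chosen after their values were seen. The genes and lists were chosen with earlier results of these data known. List members placed on another chromosome than in RefSeq (8 entries) were left out of the lists. Oligonucleotide sequences came from the study's supplement, mm9 bases from the reference genome and promoters from RefSeq GRCm38.p6, on which no position was compared with the mm9 table. A few named genes and 1 sequence are not reported here.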

Additional observations from a re-analysis of the deposited data

How the results depend on the processing

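Against 300 genes 1.5-fold or more apart (172 higher, 128 lower), a pseudocount of 0.1 gave 1012 (588 and 424), 2-fold 89 (50 and 39), a size of 25% or more 1475 (865 and 610), and leaving out linc-, Gm, RIKEN, XLOC, LOC and EG names 192 (109 and 83). Counts stayed within 1.5 times of these with at least 1 FPKM in either genotype (252), with all rows above 0 (354), with differences centred on the median (303) and, an alternative chosen after seeing the data, without the X and Y chromosomes (274). Also chosen after seeing the data, genes alone in their locus entry gave 84 (48 and 36) of 7783 genes. Among them the medians of 3 lists turned from above to below 0, those of immediate early (-0.019), myogenic (-0.13) and upper-layer cortex (-0.018) genes, with 6, 3 and 4 genes left. Within 20 Mb of Peril 5 genes and within 5 Mb 3 were past 1.5-fold, against 2 within 1 Mb. Leaving out a replicate could not be run. No paired analysis was possible because the table gives 1 pooled value per genotype.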

Other observations

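Entries without the status OK also hold levels. Of these, 147 had at least 1 FPKM in either genotype, and 39 of the 147 were 1.5-fold or more apart, 20 higher and 19 lower in KO. Among them Snora26, a small nucleolar RNA, was listed at 0 in WT and at 15.7 FPKM in KO, and the noncoding host Snhg1 was 4.11 FPKM in WT and 20.1 in KO. These entries are short or share their locus, and none was part of the counts above.

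Gene families defined by name were counted after their values were seen. Zinc finger genes named Zfp, many of which encode DNA-binding repressors, were higher in KO in 221 of 346 cases with a median of 0.06 and 9 past 1.5-fold, all 9 higher (2.60%, against 1.02% of all genes). Genes named linc- were higher in 1256 of 1744 cases with a median of 0.08, and 51 were past 1.5-fold on the higher and 26 on the lower side (4.42% together, against 1.78% of all genes). Collagen genes, many of them made by fibroblasts and vessels, were lower in 26 of 34 cases (median -0.14), with none past 1.5-fold. Protocadherins, adhesion molecules of neurons, were higher in 40 of 56 cases (median 0.04) and potassium channel genes named Kcn in 51 of 78 (median 0.04), with none past 1.5-fold in either family.

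The X-linked genes Xlr4a, Xlr3a and Xlr3b lie in separate, neighbouring locus entries and were each past 1.5-fold on the higher side in KO. Hoxb4, Hoxb5, Hoxb6, Hoxb7 and Hoxb8, neighbours on chromosome 11, were each past it as well, the first 4 of them within 1 locus entry.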
